A study of Mus musculus with 4 samples.

Results

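The V-ATPase and Ragulator genes are 32 genes for the subunits of the lysosomal proton pump and for the proteins that dock the kinase complex mTORC1 beside it. They were taken by symbol from the authors' deposited table, 1 row per gene ID, and all 32 were found among its 46603 gene IDs. The study measured polyadenylated RNA of mouse embryonic stem cells by sequencing, in 2 biological replicates labelled wild type (Gsk3a+/+;Gsk3b+/+) and 2 labelled double knockout (Gsk3a-/-;Gsk3b-/-). Cells of both genotypes were kept with serum and the cytokine LIF on a layer of irradiated feeder fibroblasts, so feeder RNA can be present in every library. The embryonic day in the sample labels differs from that in the design text, and how the mutant alleles were made or how many cell lines were used was not stated there. The table compares a group A with a group B and does not say which genotype is which, so each value below is for group B against group A.

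The V-ATPase is a rotary pump that uses ATP to move protons into lysosomes, endosomes and the Golgi. Its V1 part sits in the cytosol and hydrolyses ATP, and its V0 part is set in the membrane and lets the protons through. Several subunits exist as isoforms from separate genes, of which 1 is made in nearly every cell and others mainly in acid-secreting cells such as those of kidney, epididymis and bone. On the lysosome the pump binds Ragulator, a scaffold of the Lamtor proteins that holds Rag GTPases, and through them mTORC1 is brought to the small GTPase Rheb that activates it when amino acids are plentiful.

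Values of single libraries were recovered from the deposited group means, as A1 and A2 for group A, B1 and B2 for group B. Their total counts ranged from 112655210 to 146326307. Of the targeted genes, Gsk3a had 6353 and 7104 normalized counts in A and 1697 and 1347 in B, whereas Gsk3b had 5438 and 6285 in A and 5051 and 5002 in B. By the authors' deposited table Gsk3a had a log2 difference of -2.14 and an adjusted p of 4.90e-24. Gsk3b RNA was thus present in both groups, with a log2 difference of -0.22 and an adjusted p of 0.984 by the authors' deposited table, so its level over the whole gene did not follow the double-knockout label in either group. A normalized count is a read count divided by the size factor of its library. The 9 embryonic stem cell markers summed to 745547 to 872768 normalized counts per library, with none at 0 in any library. None of the 941 protein-coding genes of the X chromosome had a count in any library, so X-linked genes of the pathway were not measured here. Markers of other cells differed between libraries: the summed level of 15 feeder fibroblast markers was 60111 to 125517 in A and 32513 to 182092 in B, with overlap in all 15. The summed level of 19 endoderm markers was 80139.6 to 103204 in A and 177259 to 364468 in B. Of the 19, 12 were higher in both B libraries and 2 lower. Of the 17 that averaged 10 or more, 11 were higher and 2 lower, beside 26.4% and 26% of all such genes. The authors' test called 0 of the 19 (10 at an unadjusted p under 0.05), beside 5.12% of all genes averaging 10 or more. Limma called 4 of the 17, beside 2.01% of these genes.

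Expression of the constitutive pump genes differed little between the groups, while 3 genes listed as tissue-restricted pump isoforms rose in group B and the Ragulator gene Lamtor3 fell. Of the 32 members 4 passed an adjusted p of 0.05 in the authors' deposited table, or 12.5%, against 3.46% of all 30237 genes with a count. Those that rose were Atp6v1c2, Atp6v0a4 and Tcirg1. Of members averaging 10 or more 4 of 28 passed, against 5.12% of all such genes. Members were chosen with earlier results of these data known, so these shares do not test the members against all genes. Of all genes with a count 1.54% rose and 1.92% fell, or 2.28% and 2.84% of those averaging 10 or more. By limma, on recovered values of the 20465 genes averaging 10 or more, 1 member passed, Atp6v1c2, against 2.01% of these genes. In bulk RNA, fewer cells of a type and less RNA per cell cannot be told apart. Of the 32 members 28 had a mean of at least 10 normalized counts, and the other 4 were isoform genes with almost no reads. Of these 28, 12 had B above A in both libraries and 5 had B below A, beside 26.4% and 26% of all genes averaging 10 or more.

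**Figure D1:**
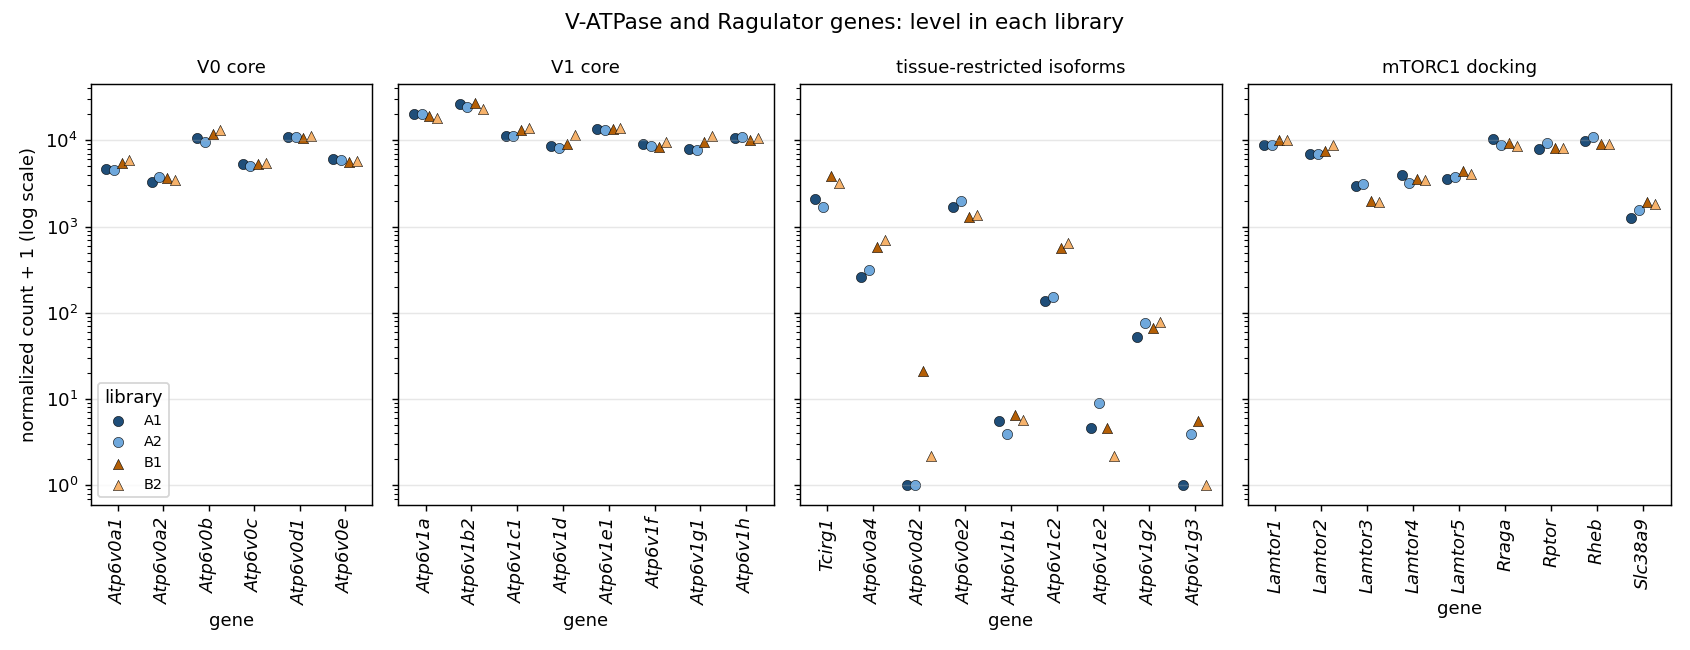
Normalized count plus 1 (log scale) of each of the 32 members in libraries A1 and A2 (circles) and B1 and B2 (triangles), in panels by role. Core and docking genes lie above 1000 in every library with the groups close together, whereas isoform genes range from 0 to 3896 and Tcirg1, Atp6v0a4 and Atp6v1c2 are higher in both B libraries.

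The 6 genes of the V0 core, the membrane part, differed by a log2 of 0.04 in the median by the authors' deposited table, where the median of all genes averaging 10 or more was 0.01. None of the 6 passed (0 at an unadjusted p under 0.05, and 2 by limma), and their log2 fold changes ran from -0.08 to 0.32. By limma 4235 of all 20465 genes averaging 10 or more had an unadjusted p under 0.05. Atp6v0b, a subunit of the proton-carrying ring, had 10603 and 9477 normalized counts in A and 11886 and 13252 in B. Both B libraries were thus above both A libraries, with a log2 difference of 0.32 and an adjusted p of 0.635 in the authors' deposited table. Atp6v0a1, the a1 isoform of the subunit through which protons pass to the ring, had 4687 and 4558 in A and 5394 and 5872 in B. These groups did not overlap either, yet the adjusted p was 0.784 (authors' deposited table). Atp6v0a2, the a2 isoform known from the Golgi, had 3275 and 3706 in A against 3676 and 3498 in B, which overlapped.

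Atp6v0c, the main ring subunit, stood at 5361 and 5070.4 in A and 5279.7 and 5426 in B. Its transcripts share 10.8% of their 50-base words with transcripts of other genes, mostly of a pseudogene copy, so its value is uncertain. Atp6v0d1, which joins the ring to the V1 stalk, was the least different of the 6, with 10917 and 10813 in A and 10602 and 11086 in B. Atp6v0e, a small membrane subunit, had 6114 and 5942 in A and 5616 and 5769.6 in B, so both B libraries were lower, with a log2 difference of -0.08 and an adjusted p of 1 by the authors' deposited table.

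Levels of the 8 V1 core genes, the catalytic part, had a median log2 difference of 0.03 by the authors' deposited table. None passed (1 at an unadjusted p under 0.05, and 2 by limma, which held 4235 of all 20465 genes at that cut). Atp6v1g1, a subunit of the peripheral stalk, had the largest difference of the V1 core. It had 7861 and 7686 normalized counts in A and 9506 and 11064 in B, and the log2 fold change was 0.40 with an adjusted p of 0.372 in the authors' deposited table. A share of 19.2% of its 50-base words occurs in other genes' transcripts. Atp6v1c1, the common C subunit that links stalk and catalytic head, had 11195 and 11269 in A and 13072 and 13996 in B. For Atp6v1d, of the central rotor, the values were 8598 and 8121 in A and 9028 and 11515 in B. Both genes were higher in both B libraries, with log2 fold changes of 0.27 and 0.30 and adjusted p values of 0.817 and 0.859 in the authors' deposited table.

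The catalytic subunit gene Atp6v1a had 20369.8 and 20028.5 in A and 19086 and 17939 in B, which did not overlap. Its partner Atp6v1b2 had the highest normalized counts of the members, with 26275 and 24134 in A and 27211 and 23172 in B. Atp6v1e1, of the peripheral stalk, had 13493 and 13107 in A and 13412 and 13782 in B. For Atp6v1f, of the rotor, the values were 9131 and 8594 in A and 8416 and 9668 in B. Atp6v1h, which regulates the coupling of V1 to V0, had 10695 and 11014 in A and 9963 and 10729 in B. Groups overlapped in Atp6v1b2, Atp6v1e1, Atp6v1f and Atp6v1h, and in 7 of the 14 core genes in all. Of the 14, 5 had B above A in both libraries and 2 had B below A. Over all genes averaging 10 or more, groups did not overlap in 52.5%, so the core genes were near that share.

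The intervals of the core genes were narrow. By limma, the 95% intervals of the log2 fold changes of the 14 core genes lay between -0.34 and 0.68, with standard errors of 0.09 to 0.14 (n = 2 libraries per group). A change of 2-fold in either direction lay outside each of these intervals. Per kilobase of exon, a scale on which genes can be compared, core genes ranged from a mean of 526 normalized counts for Atp6v0a2 to 8422 for Atp6v1f over the 4 libraries. Atp6v1g1, at 7955, was next below Atp6v1f, and their values overlapped between libraries (6772 to 9748 for Atp6v1g1 and 7917 to 9095 for Atp6v1f).

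**Figure D2:**
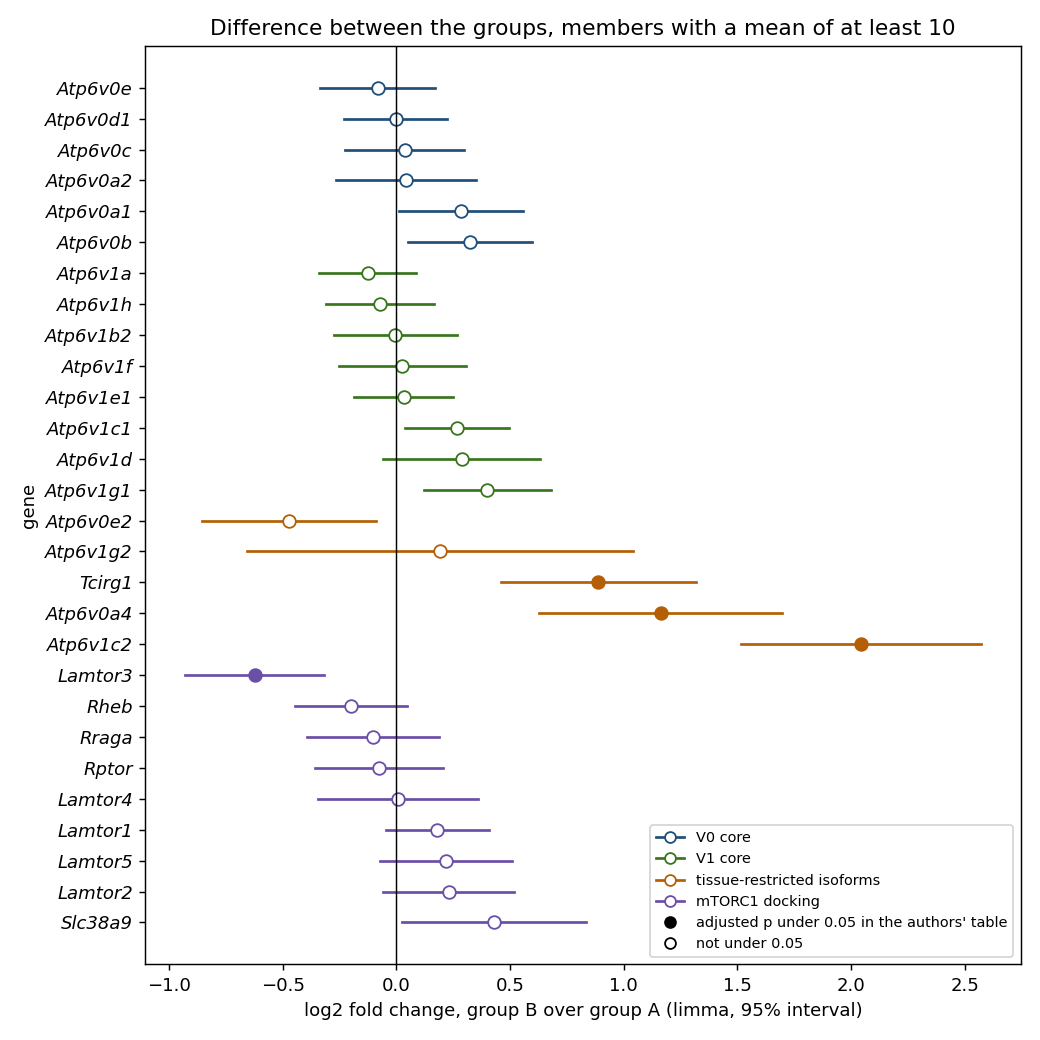
Log2 fold change of group B over group A by limma for the 28 members averaging 10 or more, with 95% intervals, coloured by role. Filled points passed an adjusted p of 0.05 in the authors' deposited table; they are Atp6v1c2, Atp6v0a4 and Tcirg1 to the right and Lamtor3 to the left, while all core intervals lie between -0.34 and 0.68.

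Among the 9 genes listed as tissue-restricted isoforms, 3 rose and none fell. Atp6v1c2 (ENSMUSG00000020566, mm10 chromosome 12, 17284721 to 17329359, minus strand) encodes the C2 isoform of the V1 subunit C, known from kidney and lung. It had 137 and 153 normalized counts in A and 566 and 639.6 in B. Both B libraries were far above both A libraries, on recovered counts of 149 and 155 reads in A and 617 and 541 in B. The authors' deposited table gives a log2 ratio of 2.05, a 4.15-fold rise, with an adjusted p of 1.05e-11. By limma it was 2.04 in log2 (SE 0.21, adjusted p = 0.0285), with an adjusted p of 0.180 without A1 and 0.308 without A2. An exon of Atp6v1c2 shares 50 bases with Pdia6 on the opposite strand, a gene with 47010.2 to 51192 normalized counts per library and a log2 difference of 0.06 by the authors' deposited table.

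The 250 bases before the RefSeq start of Atp6v1c2 (GRCm38.p6, chr12:17324731-17324980, minus strand) are shown because this gene changed most. They hold none of 5 motifs searched on both strands, so no letters are in capitals. The window lies inside the gene as GENCODE places it, with a minus-strand start at 17329359. Bases before that start were not searched.
Atp6v1c2: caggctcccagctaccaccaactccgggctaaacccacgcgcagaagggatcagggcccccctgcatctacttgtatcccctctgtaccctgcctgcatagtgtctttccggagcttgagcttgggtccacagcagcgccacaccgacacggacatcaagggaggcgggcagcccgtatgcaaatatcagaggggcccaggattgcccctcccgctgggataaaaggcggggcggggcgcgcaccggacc
The motifs were CACGTG, TCACGTGA and the longer CLEAR palindrome, nested forms of the E-box that factors of the MiT/TFE family bind, CTTTGAT, bound by TCF/LEF factors, and AGATAA, bound by GATA factors. Among 32817 RefSeq windows of this length, 6.02%, 0.786%, 0.241%, 3.21% and 9.99% hold them, in that order.

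Atp6v0a4 (ENSMUSG00000038600, mm10 chromosome 6, 38048483 to 38124586, minus strand) encodes the a4 isoform, which in kidney serves urinary acidification. It had 257 and 312 normalized counts in A and 578 and 699.9 in B, so the groups did not overlap. The log2 fold change was 1.17 with an adjusted p of 0.000256 in the authors' deposited table. By limma it was 1.16 (SE 0.22, adjusted p = 0.0606) and missed the threshold. It shares 259 exon bases with the same-strand gene D630045J12Rik, which had 799.6 and 1292 in A and 1549 and 1611 in B. Reads in the shared bases cannot be assigned to either gene from the table, and the RefSeq window before the Atp6v0a4 start lies within an exon of D630045J12Rik.

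Tcirg1 (ENSMUSG00000001750, mm10 chromosome 19, 3896050 to 3907133, minus strand) encodes the a3 isoform, which acidifies the resorption space beneath osteoclasts. It had 2107 and 1702 normalized counts in A and 3896 and 3157 in B, with both B libraries higher. In the authors' deposited table the log2 fold change was 0.89 and the adjusted p 0.00398, whereas limma gave 0.89 in log2 (SE 0.17, adjusted p = 0.0653). Per kilobase of exon, Tcirg1 averaged 590 normalized counts over the 4 libraries, against 526 for the core gene Atp6v0a2. Its level was thus within the range of the core genes, although it is listed as tissue-restricted. RefSeq gives 3 start windows for Tcirg1. The most upstream (GRCm38.p6, chr19:3907134-3907383, minus strand) is shown because it holds the only motif found in a window of a gene that changed, an AGATAA match read on the other strand and set in capitals.
Tcirg1: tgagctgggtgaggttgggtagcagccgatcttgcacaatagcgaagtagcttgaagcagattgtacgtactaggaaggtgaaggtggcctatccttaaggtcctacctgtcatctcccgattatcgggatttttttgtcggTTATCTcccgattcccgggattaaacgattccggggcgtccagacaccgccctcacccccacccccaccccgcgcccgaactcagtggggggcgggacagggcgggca

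Markers of some other cell types differed in the same direction as these isoform genes and those of others did not. Their part in the result was not tested. For each marker count here, the shares over all genes averaging 10 or more are 26.4% higher and 26% lower in both B libraries. Among markers that also averaged 10 or more, 13 of 18 macrophage and osteoclast markers were higher and 3 lower. For acid-secreting epithelium they were 0 and 4 of 6. The counts that follow are over all listed markers. Of 19 macrophage and osteoclast markers, 14 were higher and 3 lower in both B libraries. Their summed level was 29087 to 30737 in A and 23861 to 31092 in B. Laptm5, which overlapped between the groups, made up most of that sum, and without it, a choice made after its values were seen, the sums were 5159.7 and 4874 in A and 6196 and 6871 in B, higher in both B libraries. In the authors' deposited table, 3 of the 19 rose (Ptprc, Lyz2 and Spi1) and Mrc1 fell. Of all genes averaging 10 or more, 2.28% rose and 2.84% fell in that table. The 3 lower in both B libraries were Mrc1, Cd68 and Itgam. Cd68 had 2748 and 2458 in A and 2128 and 1960 in B, and Itgam 147 and 153 in A and 95.3 and 100 in B. Spi1, the transcription factor that sets macrophage fate, had 158 and 153 in A and 426 and 403 in B. Acp5, the acid phosphatase of osteoclasts, had 500.2 and 714.9 in A and 1479 and 1051 in B, and Ctsk, the bone-resorbing protease, had 215 and 127 in A and 130.2 and 241 in B. The summed endoderm markers were higher in B1 than in B2, for example Sox17 at 3231 and 1427, as was Tcirg1, while Atp6v1c2 and Atp6v0a4 were higher in B2. Of 7 markers of acid-secreting epithelium, 1 was higher and 4 lower in both B libraries, with sums of 355 to 438 in A and 251 to 252 in B. The 1 that was higher is Foxi1, the factor that defines such cells, at 0 in both A libraries and at 0.917 and 1.18 in B. These values are 1 read in each B library, too few to tell the groups apart.

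Of the isoform genes that did not pass, Atp6v0e2, a second form of the small e subunit known from brain, differed in the other direction. It had 1672 and 1997 normalized counts in A and 1283 and 1350.2 in B, with a log2 difference of -0.48 and an adjusted p of 0.240 in the authors' deposited table. Atp6v1g2, the neuronal G2 isoform, overlapped between groups with 51.6 and 75.1 in A and 65.1 and 78.0 in B. Of 9 neuron markers, 7 of which averaged 10 or more, 2 were higher and 1 lower in both B libraries. The shares of all genes averaging 10 or more were 26.4% and 26%. Among the 9, Dcx and Syp, both X-linked, are listed at 0. The summed level of the neuron markers was 26862 to 30971 in A and 35523 to 38024 in B, mostly from Stmn2. Without Stmn2 the direction turned, with sums of 2427 to 2578 in A and 2048 to 2302 in B.

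Atp6v0d2, the d2 isoform of macrophages and osteoclasts, had no read in A1 and A2, 22 in B1 and 1 in B2. Its adjusted p was 0.822 in the authors' deposited table, and nearly all of its reads came from B1. Against a floor of 3 counts over group A its group B mean was at least 7.20-fold higher, a bound that rests on B1. Atp6v1b1, the kidney B1 isoform, had 3 to 6 reads per library, Atp6v1e2, a testis form, 1 to 8, and Atp6v1g3, a kidney form, 0 to 5. With so few reads, differences in these 3 genes were not detectable at this depth.

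On normalized counts per kilobase of exon, the isoform shares of subunits a, C and e did not overlap between the groups, and the gap was widest relative to the spread for subunit C. Levels of single genes did not overlap in 52.5% of all genes averaging 10 or more, so a lack of overlap is common here. Without division by length the Atp6v0a1 share did overlap, at 45.4% and 44.3% in A and 39.8% and 44.4% in B. Per kilobase, Atp6v1c2 made up 3.06% and 3.39% of subunit C mRNA in A and 10.03% and 10.5% in B, a mean of 3.22% ± 0.23 against 10.3% ± 0.36 (SD, n = 2). The summed level of both C genes was higher in B by a log2 ratio of 0.38. For subunit a, Tcirg1 held 26.7% and 22.0% in A and 36.3% and 30.6% in B, and Atp6v0a4 held 3.02% and 3.74% in A and 4.98% and 6.28% in B. The share of Atp6v0a2 was 28.5% and 32.8% in A and 23.4% and 23.2% in B, and that of Atp6v0a1 41.8% and 41.4% against 35.3% and 39.9%. With 2 libraries per group an exact two-sided permutation test cannot go below p = 0.333, and no other test of a share was run. Within subunit e the Atp6v0e2 share was 29.9% and 34.4% in A and 26.3% and 26.7% in B. Subunits B, E, G and d came almost wholly from 1 gene, with Atp6v1b2, Atp6v1e1, Atp6v1g1 and Atp6v0d1 each at 99.5% or more in every library. Shares of B and d did not overlap between the groups either, but their minor genes had few reads. Atp6v1b1 held 0.0212% and 0.0149% of subunit B in A and 0.0245% and 0.0247% in B. Atp6v0d2 held 0% of subunit d in A and 0.125% and 0.00704% in B.

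**Figure D3:**
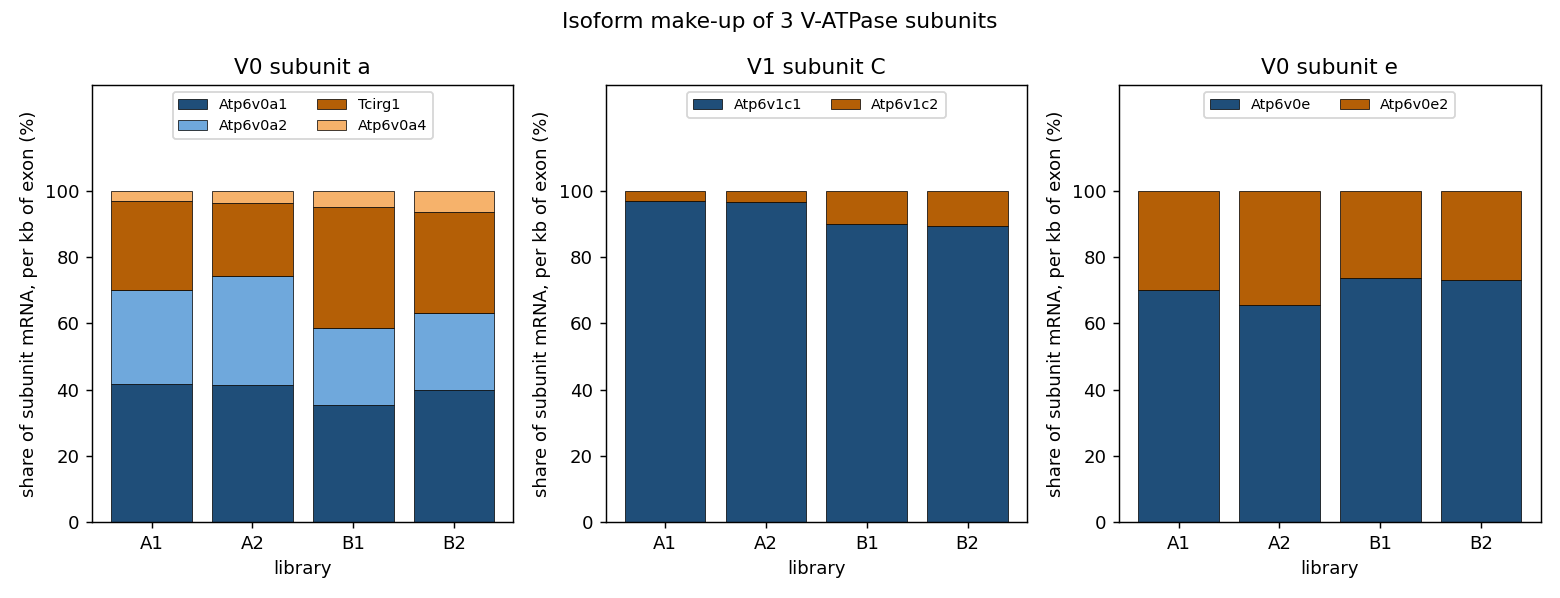
Share (%) of each isoform gene in the summed mRNA of subunits a, C and e, on normalized counts per kilobase of exon, as stacked bars for each library. The Atp6v1c2 part grows from 3.06% and 3.39% in A1 and A2 to 10.03% and 10.5% in B1 and B2, and Tcirg1 with Atp6v0a4 takes a larger part of subunit a in both B libraries.

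Of the 9 mTORC1 docking genes, Lamtor3 fell and the other 8 did not pass. Lamtor3 (ENSMUSG00000091512, mm10 chromosome 3, 137918506 to 137928900, plus strand) encodes MP1, which pairs with Lamtor2 in Ragulator and also scaffolds MEK and ERK. It had 2951 and 3127 normalized counts in A and 1997 and 1946 in B, and the groups did not overlap. In the authors' deposited table the log2 fold change was -0.62, to 0.649 of the level in A, with an adjusted p of 0.0392. By limma it was -0.62 (SE 0.12, adjusted p = 0.0670), short of the threshold. The gene Gm5900 holds 5.46% of the 50-base words of Lamtor3 transcripts. Among all genes the authors' p of Lamtor3 ranked 983, and 1047 genes passed, so it lay near the threshold.

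No other Ragulator gene was lower in both B libraries. Lamtor2, the partner of Lamtor3, had 6975 and 6953 in A and 7552 and 8829 in B. Lamtor1, the membrane anchor of the complex, had 8859 and 8838 in A and 10034 and 10028 in B, and Lamtor5 had 3557 and 3755 in A and 4452 and 4073 in B. These 3 genes were higher in both B libraries, with log2 fold changes of 0.18 to 0.23 and adjusted p values from 0.946 to 1 in the authors' deposited table. Lamtor4, which pairs with Lamtor5, overlapped between the groups, with 3913 and 3179 in A and 3594 and 3502 in B. For Lamtor1, 25.6% of 50-base words occur in other genes' transcripts, chiefly in the opposite-strand neighbour Lrrc51, and the share was 14.5% for Lamtor5.

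Slc38a9, the lysosomal arginine sensor, had 1245 and 1557 in A and 1903 and 1847 in B. Both B libraries were higher, with a log2 difference of 0.42 and an adjusted p of 0.358 in the authors' deposited table. Rheb, the direct activator of mTORC1, had 9868 and 10824 in A and 9057 and 8961 in B, lower in both B libraries with a log2 difference of -0.20 and an adjusted p of 1 (authors' deposited table). Rraga, 1 of the Rag GTPases, overlapped with 10424 and 8895 in A and 9292 and 8671 in B. Rptor, the subunit of mTORC1 that binds the Rags, also overlapped, with 8020.0 and 9319 in A and 8179.5 and 8223 in B. Over the 9 docking genes the authors' deposited table gives a median log2 difference of 0.00072.

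Start windows were found for 25 of the 32 members, and not for Atp6v0a2, Atp6v1b2, Atp6v1c1, Atp6v1g1, Atp6v1h, Atp6v0d2 and Lamtor3. CACGTG was in 5 of 30 member windows (16.7%), those of Atp6v0b, Atp6v1a, Lamtor1, Lamtor4 and Rheb, against 6.02% of all windows. Stretches of 46 bases around it (GRCm38.p6) are shown for 4 of these genes, to set core and docking genes side by side. The E-box is in capitals.
Atp6v0b, chr4:117887340-117887385, minus strand: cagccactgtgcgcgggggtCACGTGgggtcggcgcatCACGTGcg
Atp6v1a, chr16:44139365-44139410, minus strand: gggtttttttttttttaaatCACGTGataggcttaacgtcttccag
Lamtor1, chr7:101905749-101905794, plus strand: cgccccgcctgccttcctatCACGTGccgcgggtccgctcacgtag
Lamtor4, chr5:138255342-138255387, plus strand: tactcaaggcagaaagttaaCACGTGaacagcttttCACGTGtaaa
None of the 5 genes passed in the authors' deposited table, and their log2 fold changes were 0.32 for Atp6v0b, -0.13 for Atp6v1a, 0.18 for Lamtor1, 0.00072 for Lamtor4 and -0.20 for Rheb. CTTTGAT was in 4 member windows, of Atp6v0e2, Atp6v1g3, Lamtor5 and Slc38a9, and in none of a member that passed. AGATAA was in 3 of 30 member windows (10%), of Atp6v0e, Lamtor1 and Tcirg1, against 9.99% of all windows. A match is a run of letters and not a measured site.

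Other genes of the pathway were counted from 4 lists, in which 3 of 66 genes with a count rose and 2 fell in the authors' deposited table. Over all genes with a count 1.54% rose and 1.92% fell, or 2.28% and 2.84% of those averaging 10 or more. At an unadjusted p under 0.05, limma held 4235 of all 20465 genes averaging 10 or more. None of 14 accessory and assembly genes of the V-ATPase passed, and none of 13 by limma. An unadjusted p under 0.05 was held by 3 in each test. For the authors' test the share of all genes at that cut was not counted. The 2 of these with the highest mean count, Oxr1 and Dmxl1, whose products associate with the pump, had log2 fold changes of -0.19 and 0.07 in the authors' deposited table. Atp6ap1, Atp6ap2 and Vma21, its other well-known accessory genes, are X-linked and listed at 0. Of 9 measured genes of mTORC1 and the Rag GTPases, Akt1s1, an inhibitory mTORC1 subunit, rose by a log2 of 0.66 in the authors' deposited table, adjusted p 0.0141, from 5959 and 6761 in A to 9505 and 10644 in B; by limma its adjusted p was 0.0571. None of 23 genes of amino acid sensing upstream of the Rags passed in either test (at an unadjusted p under 0.05, 0 by the authors' test and 1 by limma), and of the 2 with the highest mean count Sesn2, the leucine sensor, had a log2 fold change of 0.15 and Seh1l, of the GATOR2 complex, of -0.17 (authors' deposited table).

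Rragd, the Rag GTPase D gene, was named after its values were seen. It had 973 and 838 normalized counts in A and 1939 and 4097 in B, so the B libraries were higher but differed by more than 2-fold from each other. By the authors' deposited table its log2 fold change of 1.74 did not pass (adjusted p 0.4551). Of 20 measured genes of the lysosomal membrane and the MiT/TFE factors, 2 rose and 2 fell, beside 5.12% of all genes averaging 10 or more that passed. At an unadjusted p under 0.05 there were 12 of the 20 in each test, and by limma 4235 of all 20465 genes. Limma called Cd63, Slc38a7 and Mitf, and in place of Borcs5 Lamp1, an abundant lysosomal membrane protein (adjusted p = 0.0320). Slc38a7, a lysosomal glutamine exporter, rose by a log2 of 0.75 in the authors' deposited table, adjusted p 0.00415, from 3842 in both A libraries to 5990.2 and 6941 in B, and Cd63, a late endosomal membrane protein, by 1.27, from 8613 and 5492 in A to 17269 and 16813 in B. Borcs5, of the BORC complex that binds Ragulator and positions lysosomes, fell by 0.77 in log2, adjusted p 0.0156, in the authors' deposited table, from 1026 and 1161 in A to 640.8 in both B libraries, and its adjusted p by limma was 0.0769. Mitf, a factor of the family that binds E-boxes of lysosomal genes, fell by 1.05 in log2, adjusted p 0.000105, in the authors' deposited table, from 1802 and 2234 in A to 952 and 1000.2 in B.

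**Figure D4:**
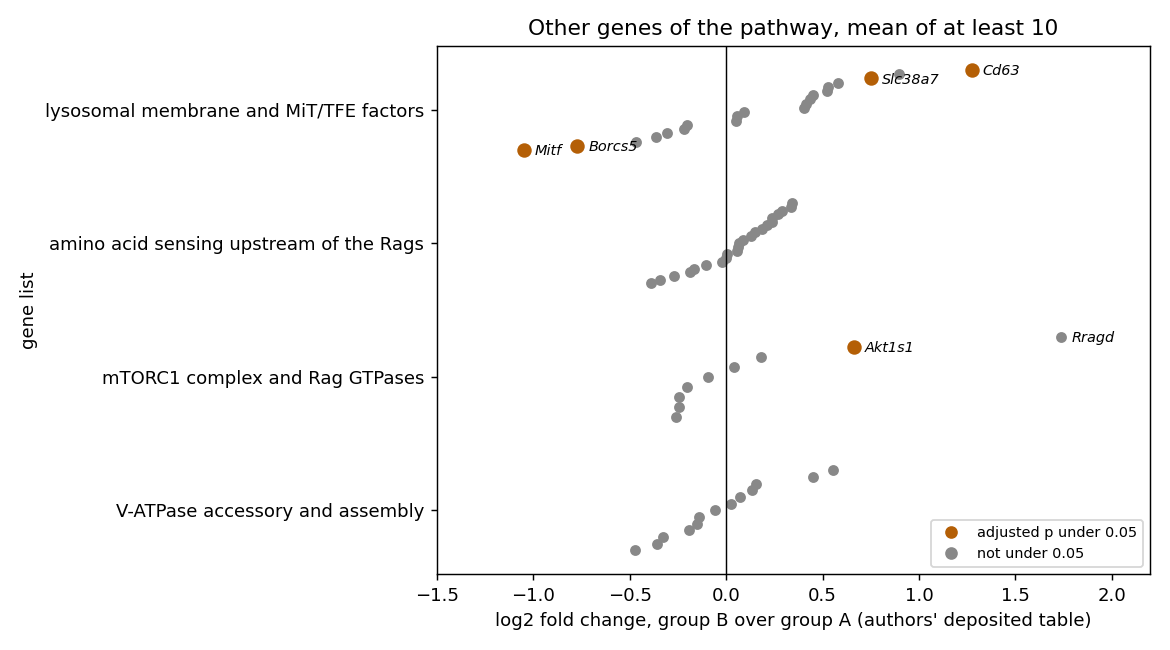
Log2 fold change of group B over group A in the authors' deposited table for the pathway genes averaging 10 or more, in rows by list. Coloured points passed an adjusted p of 0.05, which are Akt1s1, Cd63 and Slc38a7 to the right and Mitf and Borcs5 to the left, while no accessory or amino acid sensing gene passed.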

How the data were processed

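Stranded polyA libraries of 4 samples were sequenced. The submitters' processing notes name STAR, DESeq and mm10; for versions, counter, strand setting and filters the sources used here give nothing. Per the file headers, the authors deposited for each gene the mean normalized count of 2 groups, the ratio of both (the fold), the log2 of it, and p-values raw and adjusted. Of 46608 rows, 5 repeated a gene ID and were used once. The authors' test is the main test, at an adjusted p of 0.05, since no sample has a column of its own.

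Each group mean is a sum over its 2 libraries of whole reads times the step 1 read is worth. The closest pair of whole counts lay within 1e-06 for all 28616 genes with a mean in A and 28353 in B. In 1700 genes in A and 11 in B, among them Atp6v1a and Atp6v1b2, a second pair also lay within it, but at 20.5 times the distance of the closest or more. Library names follow step size, not the labels' replicate numbers. The recovered values were tested with limma 3.58.1 (R 4.3.3, mean-variance trend, two-sided, Benjamini-Hochberg adjustment over all genes tested) on log2(normalized count + 1) of genes averaging 10 or more, a scale that understates changes of low genes. The labels call the samples biological replicates without saying what was separate, so p-values measure the spread between these samples. Recovery and limma were also run on simulated counts given the same relative spread in all genes and libraries. In the real data the SD of log2 ratios between libraries was 0.466 in A and 0.637 in B. The simulation therefore does not show how limma performs on these libraries.

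Exon lengths, positions and shared 50-base words come from GENCODE M21, and sequences from RefSeq. Every member, Gsk3a and Gsk3b were named, and from each pathway list the genes that passed, or the 2 with the highest mean. Castor1 and Castor2 were matched by gene ID. Members and lists were chosen with earlier results of these data known. Alternatives were other scalings, pseudocounts, filters, thresholds and left-out libraries.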

Additional observations from a re-analysis of the deposited data

How the results depend on the processing

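In place of the 4 members past the threshold, limma called 1 with all libraries under each scaling, pseudocount and filter, and 0 to 2 with 1 library left out. That 1 was Atp6v1c2. Without B1 they were Atp6v1c2 and Atp6v0a4, without B2 Atp6v1c2 and Tcirg1, and without A1 or without A2 limma called 0 of all 20465 genes (2420 and 2034 at an unadjusted p under 0.05). A group left with 1 library is assumed to vary like the other. All genes past the threshold numbered 674 at an adjusted p of 0.01 in the authors' deposited table. In limma they numbered 411, or 448 with total-count and 570 with upper-quartile scaling, 495 with a pseudocount of 4, 412 with no filter, 439 with a mean of at least 50, and 0 to 1111 with 1 library left out. Pathway genes past the authors' threshold numbered 3 at 0.01 and 9 at 0.1, and those past limma's 4 with all libraries and 0 to 7 with 1 library left out. With 1 library left out the docking median ran from -0.01 to 0.16. Members with log2 differences near 0 turned in direction in limma with 1 library left out. Without A1 these were Atp6v0a2 (-0.047), Atp6v0d1 (0.0037), Atp6v1b2 (0.057), Atp6v1g2 (-0.075) and Rraga (0.013). Without A2 these were Atp6v0c (-0.0023), Atp6v1f (-0.018), Lamtor4 (-0.14) and Rptor (0.032). Without B1 these were Atp6v0d1 (0.029) and Lamtor4 (-0.010), and without B2 Atp6v1b2 (0.11) and Atp6v1f (-0.074). Lamtor4 was also at -0.0051 with total-count and -0.013 with upper-quartile scaling. Tcirg1, Atp6v0a4, Atp6v1c2 and Lamtor3 kept their direction in every limma setting. The cause was not tested. No paired analysis was possible because the table's columns carry no replicate numbers. Depth did not limit the core genes, whose precision rests on the spread between 2 libraries; it limits Atp6v1b1, Atp6v1e2 and Atp6v1g3, while Atp6v0d2 is limited by the spread between B1 and B2.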
